A study of Mus musculus with 35 samples.

Results

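The libraries described here are the 4 of day 6, out of 35 in the series, a total RNA time course of mouse embryonic stem cells (ESCs) after deletion of *Dnmt1*. They were chosen by their day alone: 2 were labelled control and 2 were labelled DNMT1KO. *Dnmt1* RNA was low in both libraries labelled control and high in both labelled DNMT1KO, the reverse of every other day from day 1 onwards. No other record of sample identity was tested here, so the labels are kept, and each direction is given both as labelled and by *Dnmt1* level. The libraries labelled control are called low-Dnmt1, and those labelled DNMT1KO are called high-Dnmt1.

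The study compared ESCs with and without *Dnmt1* at days 0, 1, 3, 6, 9, 11, 17 and 25, with 1 further library of Dicer KO cells that was not used. The labels give the background strain as E14 and the genotype as Wildtype for control and Dnmt1 KO for DNMT1KO, whereas the methods name *Dnmt1* loxP/loxP ESCs of strain C57BL/6. In those cells Cre, induced with tamoxifen (4OHT), removed the floxed sequence, and all cells were grown in serum and LIF with or without feeders, which are fibroblasts that support ESC growth. It is not stated whether control cells received 4OHT, nor whether the 2 libraries of a group came from separate inductions of 1 line. The p-values and standard errors (SE) therefore measure only the spread between libraries of a group. That spread was pooled over the 32 libraries in the fit, not taken from the day 6 libraries alone.

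DNMT1 is the maintenance methyltransferase that copies CpG methylation onto the new DNA strand after replication. Without it, methylation is diluted as cells divide, and the genes most dependent on methylation for silence are imprinted genes, germline genes and some genes of the cleavage-stage embryo. ESCs tolerate the loss of DNA methylation and keep dividing.

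Levels are in RPKM, reads per kilobase of exon and per mega-read of the library. Differences are in log2(RPKM + 0.1), low-Dnmt1 minus high-Dnmt1, so a positive value is higher in the libraries labelled control and lower as labelled in DNMT1KO. The pseudocount of 0.1 understates the change of genes near 0. A gene was tested if it exceeded 1 RPKM in at least 2 of 34 libraries, and it was called at an adjusted p below 0.05 in limma. The 2 low-Dnmt1 libraries held 7.49 and 15.3 mega-reads on genes and the 2 high-Dnmt1 libraries 5.33 and 5.89 mega-reads, so depth differed with the label. Genes took 20.7% to 21.3% of the reads in all 4, 20.7% to 22.4% in replicates 1 and 2 of days 0 to 9, and 44.8% to 49.99% in days 11 to 25.

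*Dnmt1* (ENSMUSG00000004099.8, chromosome 9, 20711650 to 20757317, NCBIM37) was at 3.22 and 3.40 RPKM in the libraries labelled control and at 20.2 and 20.4 RPKM in those labelled DNMT1KO. At days 3 and 9 the 4 libraries labelled control lay between 18.1 and 19.9 RPKM and the 4 labelled DNMT1KO between 2.78 and 3.32 RPKM. The day 6 values thus lay near these ranges with the labels the other way round. This level names the 2 directions and is given without a test.

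**Figure D1:**
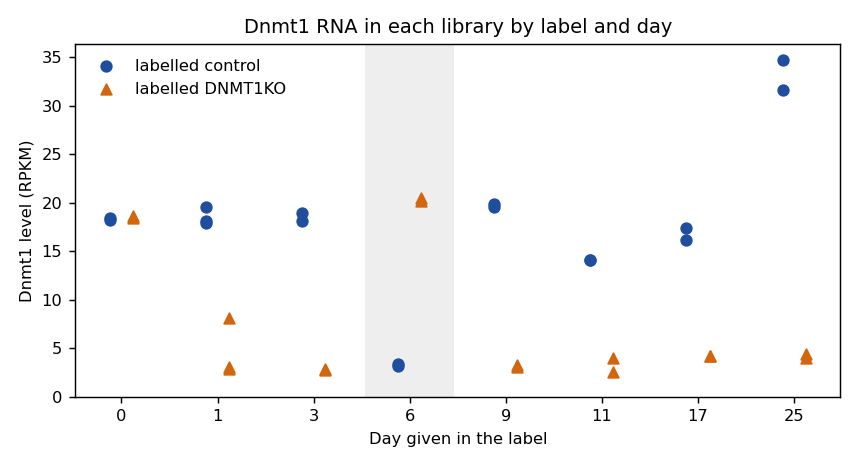
*Dnmt1* level in RPKM (vertical axis) in each library by the day in its label (horizontal axis, not to scale), with circles for control and triangles for DNMT1KO. At day 6, shaded, the circles sit at 3.22 and 3.40 and the triangles at 20.2 and 20.4.

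The rest of the transcriptome was placed in the same way, with *Dnmt1* left out. The 370 genes called with at least a 2-fold difference between the labelled groups of day 9 (2.81% of genes tested higher in DNMT1KO and, with *Dnmt1*, 0.387% lower) were used, a choice that involved no day 6 level. In the 2 low-Dnmt1 libraries, 297 (80.3%) and 304 (82.2%) of these genes were nearer to the DNMT1KO mean of day 9 than to the control mean. In the 2 high-Dnmt1 libraries it was 20 (5.41%) and 15 (4.05%). The day 3 libraries labelled DNMT1KO had 55.1% and 59.7%, and the day 3 libraries labelled control had 37 and 41 such genes. The day 6 libraries labelled control therefore lay closer to day 9 DNMT1KO than the day 3 DNMT1KO libraries did.

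**Figure D2:**
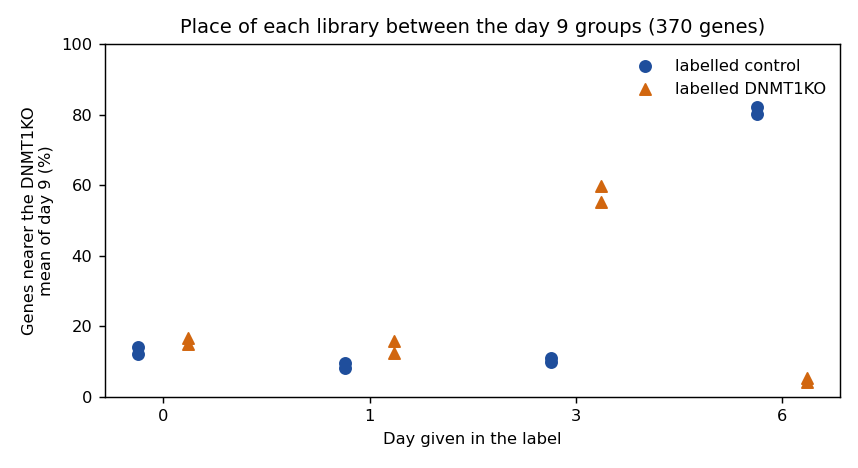
Percentage of 370 genes (vertical axis) whose level in a library was nearer to the DNMT1KO mean than to the control mean of day 9, by day (horizontal axis, not to scale). Circles are libraries labelled control and triangles those labelled DNMT1KO; at day 6 the circles are at 80.3% and 82.2% and the triangles at 5.41% and 4.05%.

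Across 11615 genes tested, 2207 (19%) were higher and 1044 (8.99%) were lower in the low-Dnmt1 libraries. As labelled, those are 2207 genes lower and 1044 higher in DNMT1KO. With a change of at least 2-fold, 351 genes (3.02%) were higher and 34 (0.293%) were lower in low-Dnmt1. These counts were 81 and 5 with a pseudocount of 1, and 475 and 43 with 0.01. They were 138 and 6 with a filter above 5 RPKM, and 497 and 52 with no filter, so they depended on both settings. Of the 351, 67 had at most 3 reads in both high-Dnmt1 libraries. Of the 34, 1 had at most 3 reads in both low-Dnmt1 libraries. The 34 and the 1044 lower genes include *Dnmt1*, whose level names the directions, and are 33 and 1043 without it. The 2 labelled groups did not overlap for 69.6% of all genes tested, so an absence of overlap says little with 2 libraries a side. When each library was centred on its median, the split was 1590 higher and 1603 lower, so the excess of higher calls depended on scaling, while the at least 2-fold classes held 298 and 41. With the third pair of day 1 libraries in the fit, in which genes took 48.1% and 48.7% of the reads, 251 genes were higher and 79 lower. Genes lower in low-Dnmt1 numbered 456 without control replicate 1, 639 and 597 without DNMT1KO replicates 1 and 2, and genes higher numbered 1404 without control replicate 2.

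The differences of day 6 ran against those of the neighbouring days as labelled. Across the 11614 genes other than *Dnmt1*, the day 6 difference as labelled had a Pearson correlation of -0.61 with that of day 3 and -0.82 with that of day 9, and of -0.085 with day 0. These are descriptions across genes, which are not independent, and the days share no library. Of 326 genes at least 2-fold higher in DNMT1KO at day 9, 323 (99.1%) had the opposite sign as labelled at day 6, and 296 of those were called that way and 0 the other. Of 119 genes (1.02%) at least 2-fold higher at day 3, 115 were opposite as labelled and 109 were called. The difference between the labelled effects was itself called for 3554 genes (30.6%) against day 3 and for 4924 (42.4%) against day 9. Taken as low-Dnmt1 minus high-Dnmt1, the effects differed for 747 genes (6.43%) from day 3 and for 39 (0.336%) from day 9. These counts rose to 1965 and 524 when the fit held days 0 to 9 only, so they depended on the libraries in the fit. Leaving out any 1 library gave 362 to 498 genes against day 3 and 0 to 3 against day 9, and the third day 1 pair in the fit gave 6 and 0.

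**Figure D3:**
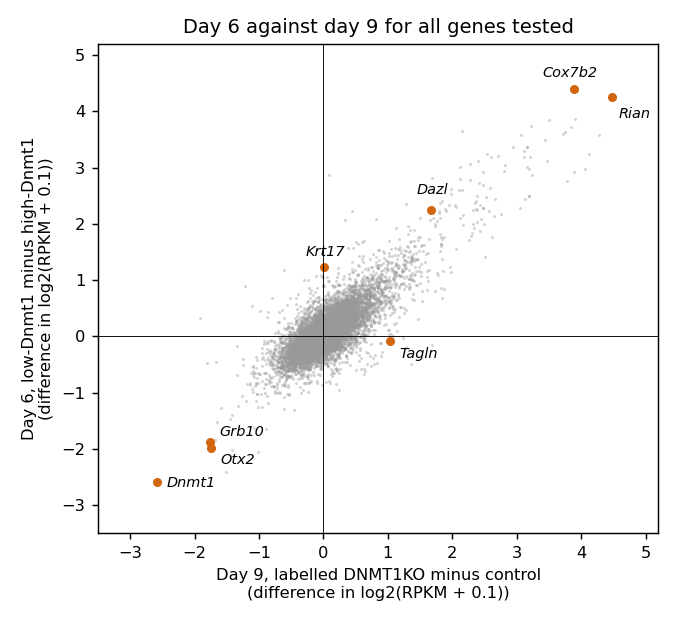
Each point is 1 of 11615 genes: the day 9 difference, DNMT1KO minus control (horizontal axis), against the day 6 difference, low-Dnmt1 minus high-Dnmt1 (vertical axis), both in log2(RPKM + 0.1). Points run along the diagonal, from *Dnmt1* and *Otx2* to *Rian* and *Cox7b2*; *Krt17* and *Tagln* lie off it.

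The 326 genes of day 9 were followed over days 3, 6 and 9. Their median difference was 0.78 at day 3, 1.34 at day 6 as low-Dnmt1 minus high-Dnmt1, and 1.37 at day 9, where they were chosen. The day 6 value was above the day 3 value for 293 of them, a difference called for 118 against 4.66% of all genes, and it was called below for 2. The 119 genes chosen at day 3 had medians of 1.34, 2.08 and 1.83 at days 3, 6 and 9. The order of days 6 and 9 therefore depended on the list. Of the 351 genes at least 2-fold higher in low-Dnmt1 at day 6, 237 (67.5%) were also at least 2-fold higher at day 9, which is 72.7% of the day 9 list. With day 3 they shared 97, which is 27.6% of the day 6 list and 81.5% of the day 3 list.

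Among imprinted genes, which are expressed from 1 parental allele under control of methylation, 23 of 33 tested were higher and 2 were lower in low-Dnmt1, against 19% and 8.99% of all genes, and with the third day 1 pair in the fit 11 and 1 were called. The median difference was 0.69, against 0.05 over all genes tested. The list has 44 genes, of which 42 are in the table. The filter admits a gene that is high in only 1 group, so counts over the genes tested are not support for a direction, here or in the lists that follow.

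The imprinted gene that differed most was *Rian*, a maternally expressed noncoding RNA of the Dlk1-Dio3 locus (chromosome 12, 110842155 to 110899919, NCBIM37). *Rian* was at 7.98 and 7.25 RPKM in low-Dnmt1 and at 0.294 and 0.310 RPKM in high-Dnmt1, a difference of 4.26 ± 0.15 (SE, n = 2 libraries a side, limma adjusted p = 2.4e-14). Its neighbours *Meg3* (2.17), *Mirg* (2.97) and *Rtl1* (2.76) differed the same way. All 4 genes were higher in both libraries labelled control, with no overlap, as was absent for 69.6% of all genes tested. The counting strand is not given, so reads on *Rtl1* may come from either strand. *Dlk1* and *Dio3* of the same locus did not pass the filter and were not tested. At day 3 *Rian* differed by 0.86 between labelled DNMT1KO and control and at day 9 by 4.48. The day 6 effect exceeded that of day 3 by 3.41 ± 0.22 for *Rian* (adjusted p = 2.3e-09). Against day 9 the effect of *Mirg* was smaller by 1.09 (adjusted p = 0.049), a call at the threshold.

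*H19*, a maternally expressed noncoding RNA of the Igf2 domain, was at 46.1 and 44.8 RPKM in low-Dnmt1 against 9.64 and 9.59 RPKM in high-Dnmt1. The difference was 2.23 ± 0.08 (limma adjusted p = 2.5e-14). Both low-Dnmt1 values were above both high-Dnmt1 values, and the 2 groups did not overlap for 69.6% of all genes tested. *Igf2*, the growth factor of the same domain, was higher by 0.58. The zinc finger gene *Plagl1* (2.11), the retrotransposon-derived *Peg10* (1.61), *Ddc* (1.36), *Peg3* (1.17) and *Mest* (0.85) were higher too. *Snrpn* was higher by 0.51 at day 6 and 0.59 at day 9, but lower by 0.52 at day 3, and the difference between days 6 and 3 was called (1.04 ± 0.11, adjusted p = 8.5e-06).

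*Grb10*, which encodes an adaptor that restrains growth factor signalling, went the other way. It was at 1.76 and 1.85 RPKM in low-Dnmt1 and at 6.22 and 7.62 RPKM in high-Dnmt1, a difference of -1.87 ± 0.08 (adjusted p = 3.1e-13). At day 3 the mean was 7.06 RPKM in DNMT1KO and 7.17 RPKM in control (difference -0.02, adjusted p = 0.92), and at day 9 the difference was -1.76. The step between days 3 and 6 was -1.86 ± 0.12 (adjusted p = 2.3e-09). *Gnas*, which encodes a G protein subunit, was lower by 0.43 on the log2 scale. The X-linked imprinted *Xlr3a* and *Xlr3b* were higher by 3.58 and 3.59, but they are near-identical copies, so the split of reads between them is uncertain.

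Some germline genes are silenced in somatic cells and ESCs by promoter methylation. The promoters of 4 germline genes, and of the 2-cell gene *Zscan4d*, are shown because they differ in CpG content and in the direction of their genes. Each is 300 bases, 250 before and 50 after the annotated start in NCBIM37, with CG and the motif CACGTG in capitals. CACGTG reads the same on both strands and is bound by E-box factors. *Dazl* lies at chr17:50432875-50433174 (- strand), *Hormad1* at chr3:95363349-95363648 (+ strand), *Stk31* at chr6:49345353-49345652 (+ strand), *Sycp3* at chr10:87922064-87922363 (+ strand) and *Zscan4d* at chr7:11751448-11751747 (- strand).
Dazl: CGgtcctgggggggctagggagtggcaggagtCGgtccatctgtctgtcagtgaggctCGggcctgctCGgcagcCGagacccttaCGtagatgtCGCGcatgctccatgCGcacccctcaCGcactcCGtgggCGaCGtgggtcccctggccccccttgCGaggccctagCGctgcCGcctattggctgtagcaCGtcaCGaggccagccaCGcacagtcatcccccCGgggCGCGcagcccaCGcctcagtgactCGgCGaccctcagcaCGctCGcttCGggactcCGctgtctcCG
Hormad1: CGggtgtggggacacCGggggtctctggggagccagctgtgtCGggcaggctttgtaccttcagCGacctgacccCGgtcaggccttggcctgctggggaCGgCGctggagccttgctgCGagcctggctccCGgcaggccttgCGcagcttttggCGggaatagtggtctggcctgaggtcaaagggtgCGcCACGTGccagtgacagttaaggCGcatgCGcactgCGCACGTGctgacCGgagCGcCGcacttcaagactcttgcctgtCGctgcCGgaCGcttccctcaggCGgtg
Stk31: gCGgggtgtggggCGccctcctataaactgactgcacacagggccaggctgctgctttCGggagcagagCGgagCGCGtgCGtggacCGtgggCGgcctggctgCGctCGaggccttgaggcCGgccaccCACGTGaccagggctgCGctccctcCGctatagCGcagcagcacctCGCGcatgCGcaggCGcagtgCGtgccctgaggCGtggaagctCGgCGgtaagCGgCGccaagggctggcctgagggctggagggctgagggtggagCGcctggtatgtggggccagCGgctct
Sycp3: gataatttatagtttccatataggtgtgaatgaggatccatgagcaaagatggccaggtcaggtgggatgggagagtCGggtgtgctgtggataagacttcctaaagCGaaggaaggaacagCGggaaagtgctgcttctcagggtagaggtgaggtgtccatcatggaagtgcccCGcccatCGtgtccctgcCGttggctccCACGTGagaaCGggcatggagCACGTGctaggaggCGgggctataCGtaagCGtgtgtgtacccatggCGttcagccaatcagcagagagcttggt
Zscan4d: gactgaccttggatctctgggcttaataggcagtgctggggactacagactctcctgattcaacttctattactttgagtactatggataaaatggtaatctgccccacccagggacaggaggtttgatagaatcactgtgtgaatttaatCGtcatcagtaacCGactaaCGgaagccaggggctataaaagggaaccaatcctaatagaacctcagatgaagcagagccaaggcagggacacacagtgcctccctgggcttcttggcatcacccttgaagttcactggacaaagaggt
The *Dazl*, *Hormad1*, *Stk31* and *Sycp3* windows held 30, 24, 28 and 13 CpG sites, and that of *Zscan4d* held 3. CACGTG occurred 2 times in *Hormad1*, 1 time in *Stk31*, 2 times in *Sycp3* and not in the letters of the other 2 windows.

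Of 25 germline genes tested, 13 were higher, 1 was lower and 11 did not pass, against 19% higher and 8.99% lower of all genes, and with the third day 1 pair in the fit 7 were higher and 1 lower. *Dazl*, an RNA-binding protein of germ cells, was at 3.73 and 4.14 RPKM in low-Dnmt1 and at 0.798 and 0.700 RPKM in high-Dnmt1 (2.25 ± 0.11, adjusted p = 3.3e-12). *Hormad1*, of the meiotic chromosome axis, was at 7.16 and 6.59 against 1.67 and 1.28 RPKM (2.16 ± 0.14, adjusted p = 1.8e-10). Both libraries labelled control were above both labelled DNMT1KO for each gene, and the 2 groups did not overlap for 69.6% of all genes tested. *Hormad2* (2.25), *Stk31* (1.49), *Taf7l* (1.39) and the cohesin subunit *Smc1b* (1.07) were higher as well. *Asz1*, of the piRNA pathway, was at 0.264 and 0.245 RPKM against no read in either high-Dnmt1 library, which is at least 6.38-fold higher when set against 3 reads per library. *Ddx4* and *Mael*, of the same pathway, were at -0.25 (adjusted p = 0.092) and 0.02 (adjusted p = 0.94).

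*Sycp3*, a lateral element protein of the synaptonemal complex, was the germline gene that was lower. It was at 1.09 and 1.01 RPKM in low-Dnmt1 and at 3.62 and 4.50 RPKM in high-Dnmt1 (-1.85 ± 0.17, adjusted p = 6.2e-08). As labelled it was therefore higher in DNMT1KO. At days 3 (-0.74) and 9 (-1.69) it was lower in DNMT1KO, and its promoter window holds CACGTG 2 times, as that of *Hormad1* does.

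Over all genes, the promoters of the 351 genes at least 2-fold higher in low-Dnmt1 held a median of 7 CpG sites, those of the 33 at least 2-fold lower, without *Dnmt1*, 13, and those of all genes tested 19. Fewer than 5 sites were found in 29.6% of the higher genes and in 10.1% of all genes tested. Over all 26127 genes of the table the share was 32.1% and the median 10 sites. CACGTG was in 8.26% of the higher genes, in 10.2% of all genes tested, in 7.52% of all 26127 genes of the table and in 10 of the 25 germline genes. These matches are descriptions of the letters only. The higher genes were also expressed at a lower level, with a median of -0.66 in log2(RPKM + 0.1) over the 4 libraries against 1.04 for all genes tested, and the part of level in these shares was not tested.

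Testis paralogs are copies of housekeeping genes that are used in male germ cells. The list also holds *Fmr1nb* and *Slc2a3*, which are not copies of this kind. Of 8 list members tested, 6 were higher and 0 lower in low-Dnmt1, against 19% and 8.99% of all genes. The median difference was 1.46. *Cox7b2*, a respiratory chain subunit, was at 4.54 and 3.79 RPKM against 0.146 and 0.066 RPKM (4.39 ± 0.26, adjusted p = 3.8e-11). *Rpl39l*, a ribosomal protein, was at 10.4 and 9.68 against 1.09 and 0.947 RPKM (3.18 ± 0.16, adjusted p = 2.7e-12). *Fmr1nb* (2.47), *Rpl10l* (1.54), *Tuba3a* (1.38) and *Ldhc* (1.32) were higher too. *Slc2a3*, a glucose transporter that ESCs use, was at -0.04 (adjusted p = 0.78).

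The Rhox homeobox genes form a cluster on the X chromosome that is active in reproductive tissue. Of 17 rows, 5 were tested, 4 of them were higher, against 19% of all genes, and 7 rows had no read in any day 6 library. *Rhox6* was at 4.13 and 3.83 RPKM in low-Dnmt1 and at 0.351 and 0.248 RPKM in high-Dnmt1 (3.36 ± 0.18, adjusted p = 1.3e-11). *Rhox9* differed by 3.06, and *Rhox1*, without a read in high-Dnmt1, was at least 4.66-fold higher. On the whole X chromosome, 40 of 416 genes tested (9.62%) were at least 2-fold higher in low-Dnmt1, against 3.02% of all genes. The median over all X-linked genes was 0.06, near the 0.05 of all genes.

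Genes of the 2-cell embryo, which a small fraction of ESCs expresses at any time, were among the most different. Of 22 rows, 7 were tested and 7 were higher in low-Dnmt1, against 19% of all genes, with a median of 3.29. *Zscan4d* was at 1.3 and 1.37 RPKM against 0 and 0.018 RPKM (3.73 ± 0.22, adjusted p = 4.3e-11). *Gm5662* and *Zscan4f* had no read in either high-Dnmt1 library and were at least 24.7-fold and at least 19.2-fold higher. The summed level of all 22 rows was 9.37 and 9.35 RPKM in low-Dnmt1, 0.0818 and 0.181 RPKM in high-Dnmt1, and between 2.87 and 3.70 RPKM in day 3 DNMT1KO. These genes are multi-copy families, so the level of a single member is uncertain. In bulk RNA, more cells of the 2-cell kind and more RNA per cell cannot be told apart.

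The 6 genes tested of the Y-linked list were all higher in low-Dnmt1, against 19% of all genes. *Ddx3y*, an RNA helicase, was at 2.33 and 2.29 RPKM against 0.255 and 0.455 RPKM (2.44 ± 0.22, adjusted p = 2.7e-08), and *Eif2s3y* was at 2.06 and 2.11 against 0.918 and 0.858 RPKM. At day 3 their differences were 0.41 and 0.02, neither called, and at day 9 they were 3.12 and 1.99. The summed level of all 10 rows was 6.36 and 6.28 RPKM in low-Dnmt1 and 1.56 and 1.65 RPKM in high-Dnmt1. In libraries labelled control it was 2.52 and 2.47 RPKM at day 3 and 1.39 and 1.40 RPKM at day 9. In those labelled DNMT1KO it was 3.02 and 3.08 RPKM at day 3 and 10.2 and 9.13 RPKM at day 9. A difference in Y-linked RNA can come from the share of cells with a Y chromosome or from RNA per cell. These cannot be told apart here.

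**Figure D4:**
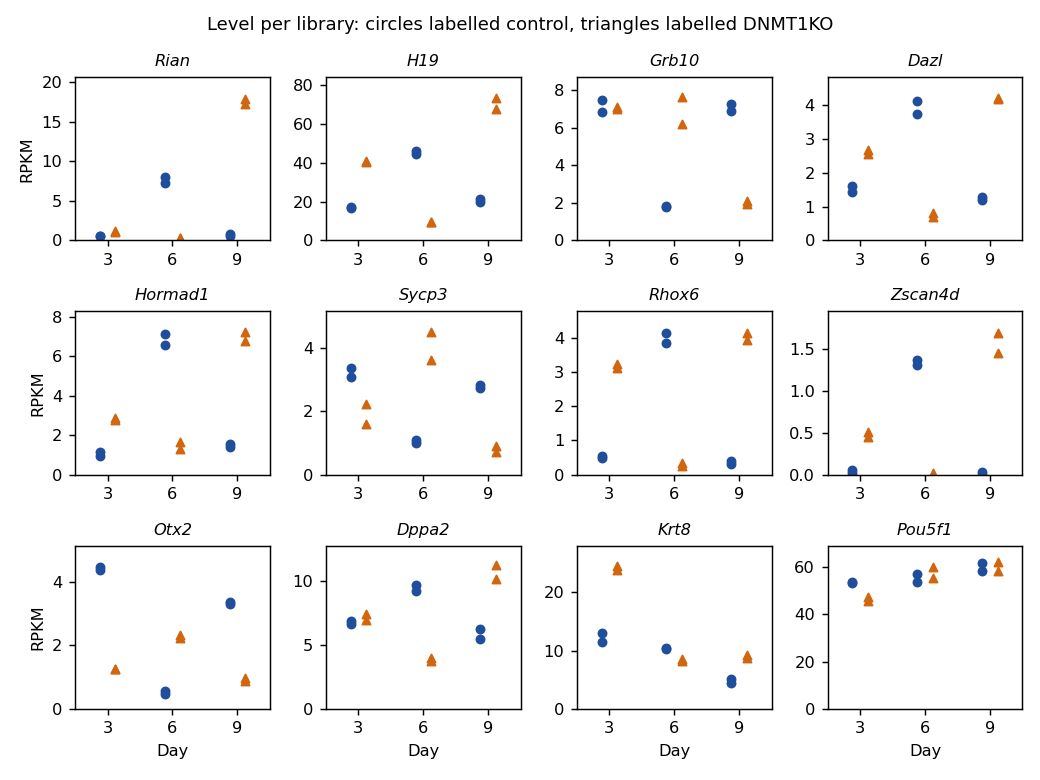
Level of 12 genes in RPKM (vertical axes, each from 0) in single libraries at days 3, 6 and 9, with circles for libraries labelled control and triangles for those labelled DNMT1KO. At day 6 the 2 symbols change places for *Rian*, *H19*, *Dazl*, *Hormad1*, *Sycp3*, *Rhox6*, *Zscan4d* and *Otx2*, while *Pou5f1* overlaps. For *Grb10*, whose means under the 2 labels are near each other at day 3, they do so against day 9 only.

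The cells kept the markers of ESCs. The 8 ESC markers lay between 7.27 and 413 RPKM in the 4 libraries, and 1 of them, *Nanog*, was called. *Pou5f1* was at 54.0 and 57.2 RPKM in low-Dnmt1 and at 60.1 and 55.4 RPKM in high-Dnmt1 (-0.05, adjusted p = 0.68). *Nanog* was higher by 0.66 ± 0.12 (adjusted p = 0.00036), at 29.6 and 31.3 against 18.6 and 20.03 RPKM. Of 24 core and naive pluripotency factors tested, 8 were higher and 3 lower in low-Dnmt1, against 19% and 8.99% of all genes. Median centring gave 5 higher and 4 lower, so the excess of higher calls depended on scaling, and the counts were 0 and 0 with the third day 1 pair in the fit. Without replicate 2 of control or of DNMT1KO, 5 were higher.

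*Dppa2*, a regulator of the 2-cell programme, had the largest difference in that list, at 9.16 and 9.66 RPKM in low-Dnmt1 and 3.93 and 3.73 RPKM in high-Dnmt1 (1.28 ± 0.08, adjusted p = 1.8e-10). At day 3 its difference was 0.08, and the step to day 6 was 1.2 ± 0.12 (adjusted p = 3.5e-06). *Fgf4*, *Utf1* and *Lin28a* were lower by 0.55, 0.53 and 0.35 in log2 units. Among formative and early lineage genes, 3 of 8 were higher and 3 lower, against 19% and 8.99% of all genes. With the third day 1 pair in the fit, 1 was higher and 1 lower. *Otx2*, a transcription factor of the exit from naive pluripotency, was at 0.553 and 0.453 RPKM against 2.33 and 2.23 RPKM (-1.99 ± 0.12, adjusted p = 4.4e-11), and it was lower in DNMT1KO at days 3 and 9 by a difference of -1.74 each. *Lefty2*, an inhibitor of Nodal signalling, was higher by 1.46 and its paralog *Lefty1* lower, at -0.50.

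Of 11 primitive endoderm genes tested, 7 were higher and 0 lower in low-Dnmt1 (4 and 0 with the third day 1 pair), against 19% and 8.99% of all genes, with *Gata6* at 1.07 and *Pdgfra* at 0.96. Their levels were low, with *Gata6* at 1.19 and 1.27 RPKM against 0.506 and 0.560 RPKM. Of 9 trophoblast regulators and simple keratins tested, 4 were higher, but 0 without DNMT1KO replicate 1, 1 without any other single library, 2 with a replicate block or median centring and 0 with the third day 1 pair, against 19% of all genes. The defining trophoblast factors *Cdx2*, *Elf5* and *Gata3* lay between 0 and 0.0614 RPKM in all 4 libraries. The keratins changed less than at day 3: the day 6 effect was below that of day 3 for *Krt7* (-1.33), *Krt8* (-0.67), *Krt18* (-0.78) and *Krt19* (-1.15), each called. Such a call was made for 1.77% of all genes. With the third day 1 pair in the fit, the effects of days 6 and 3 differed for only 6 genes of all.

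Targets of p53, a transcription factor that responds to DNA damage, are stress and cell cycle genes. At day 6, 5 of 19 tested were higher in low-Dnmt1 (2 or 3 without any 1 library, 3 with a replicate block), against 19% of all genes, and median centring gave 2 higher and 2 lower. The median difference was 0.11, against 0.42 at day 3 and 0.23 at day 9. *Perp*, a membrane protein of the apoptotic response, was at 6.67 and 6.84 RPKM against 3.24 and 3.18 RPKM (1.05 ± 0.11, adjusted p = 1.6e-07). The cell cycle inhibitor *Cdkn1a* was higher by 0.32 and the p53 ubiquitin ligase *Mdm2* by 0.23. For 8 targets, *Cdkn1a*, *Mdm2* and *Plk2* among them, the effect was smaller than at day 3, against 1.77% of all genes. With the third day 1 pair in the fit, 0 of the 19 were called at day 6, and only 6 genes of all differed in effect between days 6 and 3.

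**Figure D5:**
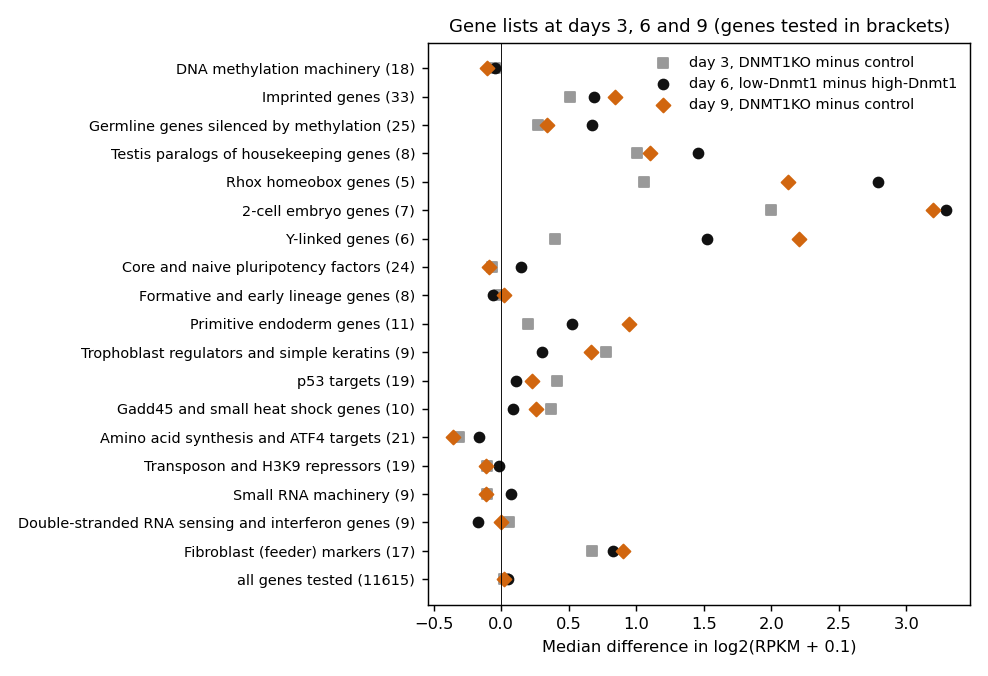
Median difference in log2(RPKM + 0.1) (horizontal axis) of each gene list and of all genes tested, at day 3 (squares), day 6 as low-Dnmt1 minus high-Dnmt1 (circles) and day 9 (diamonds). The 2-cell list is at 2.00, 3.29 and 3.2, and the p53 targets are at 0.42, 0.11 and 0.23.

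Of 18 genes of the methylation machinery tested, 2 besides *Dnmt1* were called, both higher in low-Dnmt1, a share below the 19% of all genes. The count was 1 without control replicate 2 and 0 with the third day 1 pair in the fit. *Dnmt3l*, the cofactor of the de novo methyltransferases, was at 30.5 and 31.5 RPKM against 18.7 and 19.06 RPKM (0.71 ± 0.08, adjusted p = 6.8e-07). *Uhrf1*, which brings DNMT1 to replicated DNA, was higher by 0.30 ± 0.07 (adjusted p = 0.0045). *Dnmt3a* and *Dnmt3b* were at -0.14 and 0.06, and neither passed.

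The 10 genes most above high-Dnmt1 were taken among those called with a mean of at least 0 on the log2 scale and no overlap. *Rian*, *Rhox6* and *Rpl39l*, given above, were among them. So were the predicted genes *Gm14149* (3.87), *Gm3662* (3.58), *Gm17672* (3.38) and *Gm3395* (3.37), the last of them on the Y chromosome. The others were the X-linked *Pnma5* (3.13) and *Usp26* (3.02), and *Ube2l6* (2.92), an enzyme of ISG15 conjugation. The predicted genes may share reads with other copies, so their levels are uncertain. The 10 most below it began with *Otx2*, *Grb10* and *Sycp3*, followed by *Ldhb*, a lactate dehydrogenase subunit, and *Aldoc*, a glycolytic aldolase. *Ldhb* was at 13.1 and 15.9 RPKM in low-Dnmt1 and at 32.9 and 36.7 RPKM in high-Dnmt1 (-1.26 ± 0.13, adjusted p = 1.5e-07), and *Aldoc* differed by -1.15. *Gstt2*, *Slc9a5*, *Optn*, *Zc3h6* and *1110007C09Rik* lay between -1.005 and -1.045. As labelled, each of these was higher in DNMT1KO. *Zc3h6* and *1110007C09Rik* were not called with the third day 1 pair in the fit (adjusted p = 0.12 each).

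Markers of fibroblasts, the cells of feeder layers, moved with the same grouping. Of 17 tested, 11 were higher and 0 lower in low-Dnmt1 (7 higher without control replicate 2, 1 with the third day 1 pair), against 19% and 8.99% of all genes. The list's summed level was 68.5 and 79.4 RPKM against 51.5 and 47.5 RPKM. *Acta2*, smooth muscle actin, was at 4.16 and 5.46 against 2.15 and 1.69 RPKM. *Lum* and *Dcn*, which define fibroblasts, stayed at or below 0.0645 RPKM in all 4 libraries. The same list was higher in labelled DNMT1KO at days 3 (median 0.67) and 9 (0.90), against 0.83 at day 6. The part of fibroblasts in the other results was not tested.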

How the data were processed

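Stranded total RNA libraries were made after Ribo-Zero depletion. Per the submitters' processing notes, the authors used Trim Galore 0.3.5, TopHat2 2.0.11 and the NCBIM37 build. The deposited table holds linear RPKM per gene, although the methods name log2 RPM, and the counting strand is not given in the sources used here. Below 20 reads, 99.4% to 99.6% of day 6 values were whole reads within 0.1. Here limma 3.58.1 (R 4.3.3) estimated 1 mean per group, with a trended prior, from log2(RPKM + 0.1) of 32 libraries, replicates 1 and 2, with Benjamini-Hochberg adjustment over all genes tested. The third day 1 pair was left out because the design describes 2 replicates. Day 6 libraries of the same replicate number showed no shared deviation, which cannot show whether they were paired in the experiment. Of the genes named, 10 rose most and 10 fell most among called genes with a mean of at least 0 on the log2 scale and no overlap, and 5 differed most in effect from day 3 and from day 9; all other named genes are list members. Members and lists were chosen with earlier results of these data known; the 5 promoters shown were chosen after values were seen. The fit was tested on simulated data. Alternatives were other libraries, pseudocounts, filters, centring, a replicate block, voom on recovered reads and leaving out each library.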

Additional observations from a re-analysis of the deposited data

Results flagged for a closer look

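The effect of day 6 differed from that of the neighbouring days for many genes, and each value here comes from the test of the difference between 2 days. As labelled, 3554 genes differed from day 3 and 4924 from day 9. As low-Dnmt1 minus high-Dnmt1, 747 differed from day 3 (362 to 498 without 1 library, 6 with all 34 libraries) and 39 from day 9 (0 to 3 and 0).

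Against day 3, the largest differences were those of *Rian* (3.41) and *Grb10* (-1.86), given above, and of *Gm12867* (2.08), *Ddx3y* (2.03) and *Gm10139* (1.72). *Gm12867* was itself not called at day 6 (0.45, adjusted p = 0.19) and was lower in DNMT1KO at day 3 (-1.63).

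Against day 9, *Krt17*, a keratin of stressed epithelium, had a larger effect by 1.23 (adjusted p = 0.037), at 1.37 and 1.66 RPKM in low-Dnmt1 and 0.501 and 0.681 RPKM in high-Dnmt1. *Gm2381* had a larger effect by 0.89. The smooth muscle gene *Tagln* differed by -1.12, *Ier5l* by -1.07 and the small GTPase *Rhob* by -0.92, with effects of 1.03, 0.72 and 0.41 at day 9 and of -0.09, -0.35 and -0.50 at day 6. Of the 8 fits that leave out 1 library of days 6 or 9, *Tagln* was called in 3, *Krt17* in 1, and *Ier5l*, *Rhob* and *Gm2381* in 0.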

How the results depend on the processing

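Genes higher and lower as labelled in DNMT1KO at day 6 numbered 1044 and 2207. With all 34 libraries the counts were 79 and 251, effects as labelled differed for 474 genes from day 3 and 951 from day 9, and low-Dnmt1 effects for 6 and 0 (312 and 112 at an unadjusted p below 0.05). With days 0 to 9 only, 1852 genes were higher, and low-Dnmt1 effects differed for 1965 and 524. With genes above 5 RPKM, where fewer genes were tested, the counts were 684 and 1295, and effects as labelled differed for 2068 and 2830. Median centring gave 1603 higher and 18 genes against day 9. The count test, voom on recovered reads, gave 934 higher, 1800 lower and 25 against day 9. Without 1 library, 456 to 745 genes were higher (456 without control replicate 1) and 1404 to 1565 lower, while low-Dnmt1 effects differed for 362 to 498 genes from day 3 and 0 to 3 from day 9 (905 to 1145 unadjusted). The cause was not tested. The replicate 1 minus replicate 2 differences of the 2 day 6 groups had a correlation of 0.0058 across genes. No shared deviation was thus seen, and this cannot show whether the samples were paired in the experiment. The replicate block gave 986 higher and 2105 lower, and 2 genes against day 9.

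The 20 named genes kept their direction in all 273 alternative values, and *Zc3h6* and *1110007C09Rik* lost their call with all 34 libraries (adjusted p = 0.12 for each). Of 179 alternative list medians, 47 moved by over 1 SD, and 2 lists changed sign: formative genes ranged from -0.14 to 0.06 and double-stranded RNA sensors from -0.24 to 0.10. Depth limits genes near 0, where a fold is only a lower bound.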

Other observations

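Of 10 Gadd45 and heat shock genes tested, 1 was higher and 1 lower in low-Dnmt1, against 19% and 8.99% of all genes. *Hspb1*, a small heat shock protein, was at 58.1 and 62.6 RPKM in low-Dnmt1 (labelled control) and 26.5 and 27.0 RPKM in high-Dnmt1 (1.17 ± 0.07, limma adjusted p = 4.3e-11). The chaperone *Hspa5* was lower by 0.38 in log2 units. Of 21 amino acid synthesis and ATF4 targets tested, 0 were higher and 6 were lower in low-Dnmt1, among them *Chac1* (-0.56) and *Pycr1* (-0.37). Their median was -0.17 against 0.05 over all genes, and 0 to 4 were lower when 1 library was left out, and 0 with the third day 1 pair in the fit.

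Of 19 transposon and H3K9 repressors, 3 were higher (1 without control replicate 1) and 2 lower, shares near or below the 19% and 8.99% of all genes tested, and 0 and 0 were called with the third day 1 pair in the fit; *D14Abb1e* (Fam208a), of the HUSH complex, was higher by 0.40. Of 9 genes of small RNA machinery, 2 were higher and 1 lower, about the shares over all genes. The counts were 1 and 0 without control replicate 1 and 0 and 0 with the third day 1 pair. *Dicer1* was at 3.05 and 2.83 RPKM against 2.80 and 3.08 RPKM. Of 9 double-stranded RNA and interferon genes tested of 22 in the table, 1 was called, higher in low-Dnmt1, against 28.0% of all genes called in either direction. With median centring 1 was higher and 3 were lower, and with the third day 1 pair 0 were called.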
